A study of Homo sapiens with 9 samples.

Results

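Glutathione is a tripeptide of glutamate, cysteine and glycine that keeps the interior of cells reduced. The 10 genes described here encode enzymes that make it, return it to its reduced form, use it against peroxides or act in its breakdown. They were taken from a table of 45754 genes by their symbols: GCLC, GCLM, GSS, GGCT, GSR, GPX1, GPX2, GPX3, GPX4 and GPX8. Glutamate-cysteine ligase, a dimer of GCLC and GCLM, joins glutamate to cysteine in the step that limits the rate, and glutathione synthetase, GSS, adds glycine. Glutathione peroxidases reduce peroxides and leave glutathione as a disulfide, which the reductase GSR restores with NADPH. In lung cancer cells the transcription factor NRF2 is known to drive several of these genes, and KEAP1 is known to hold NRF2 back.

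RNA was sequenced in 9 libraries of human cells labelled as the lung adenocarcinoma line H441. The cells had been exposed for 24 h to 10 µM RSGL, to 10 µM BSGL, or to 0.1% DMSO as the control, with 3 libraries per group. RSGL and BSGL are code names of compounds. The sample labels contradict each other on the cells, since a genotype tag names A549 for the RSGL libraries and H460 for the BSGL and control libraries, so the effect of RSGL and the tagged difference in cells cannot be told apart. Of 9 lung lineage genes known from H441, 0 reached 1 FPKM in 3 libraries, and NKX2-1 stayed at or below 0.0596 FPKM in every library.

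The libraries held 16720414 to 18738947 fragments in genes. FPKM is fragments per kilobase of gene, scaled to library size. Levels of different genes may be compared only as far as the deposited gene lengths match the transcripts expressed, which was not tested. Endothelial, T cell and fibroblast markers passed the filter in 0 of 6, 1 of 6 and 3 of 7 cases. Of 7 macrophage markers 2 passed, and their summed level was 117 to 121 FPKM under RSGL, 46.6 to 47.8 under BSGL and 42.2 to 42.7 in control, nearly all of it CD68, a lysosomal protein. CD14, the other that passed, went the opposite way, at 0.186 to 0.516 FPKM under RSGL, 1.29 to 1.96 under BSGL and 2.01 to 2.22 in control, while AIF1 was listed at 0 and LYZ at no more than 0.0343 FPKM. The part of these markers in the results below was not tested. In bulk RNA, fewer cells with a transcript and less of it per cell cannot be told apart.

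The promoters of the ligase subunits and of GPX2 are shown because GCLC and GCLM, which form 1 enzyme, changed unequally under RSGL, and because GPX2 had the lowest ratio of RSGL to control among the peroxidases. The sequences come from RefSeq (GRCh38.p14), which held 7 of the 10 genes in the table used here, and each line gives the 250 bases before the start site, 5′ to 3′ on the gene's strand. Capitals mark matches to TGACNNNGC, the core of the antioxidant response element to which NRF2 binds.
GCLC, chr6:53545102-53545351, minus strand: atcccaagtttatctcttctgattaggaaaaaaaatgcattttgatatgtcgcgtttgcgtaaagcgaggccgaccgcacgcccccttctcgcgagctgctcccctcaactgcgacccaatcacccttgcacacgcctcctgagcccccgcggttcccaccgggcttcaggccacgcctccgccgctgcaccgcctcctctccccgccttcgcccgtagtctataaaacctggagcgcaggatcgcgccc
GCLM, chr1:93909431-93909680, minus strand: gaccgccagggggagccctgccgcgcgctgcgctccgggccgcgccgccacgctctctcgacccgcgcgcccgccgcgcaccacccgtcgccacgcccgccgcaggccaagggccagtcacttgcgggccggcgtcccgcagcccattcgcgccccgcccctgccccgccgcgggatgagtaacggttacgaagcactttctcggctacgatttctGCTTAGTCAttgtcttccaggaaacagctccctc
GPX2, chr14:64942746-64942995, minus strand: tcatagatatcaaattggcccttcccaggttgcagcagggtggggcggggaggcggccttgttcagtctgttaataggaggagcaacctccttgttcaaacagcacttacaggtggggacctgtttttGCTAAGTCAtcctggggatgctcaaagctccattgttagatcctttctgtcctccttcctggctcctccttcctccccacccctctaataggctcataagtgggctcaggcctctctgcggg

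Both strands of 250 bases before to 50 after each start were searched. The GCLM match begins at base -34 and the GPX2 match at base -122 from the start, both on the reverse strand. GCLC, GPX1, GPX3 and the 3 windows of GPX4 held no match to these letters, nor did that of GPX8. Bases farther from the start were not searched, so the lack of a match does not mean that a gene has no such site. Of 35116 windows of the same length in the table, 13.3% held the core. The AP-1 letters TGANTCA occurred in 0 of the members' windows, against 7.71% of all, and the core TGATGNAA of sites for ATF4 and CHOP occurred in that of GPX8, against 3.62% of all. No window of a member held more than 1 of the 3 motifs.

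The genes lie on 9 chromosomes of GRCh38. GCLC (gene ID 2729) is on chromosome 6 at 53497341 to 53545129, GCLM (2730) on chromosome 1 at 93885199 to 93909598, and GSS (2937) on chromosome 20 at 34928433 to 34956027. GGCT (79017) is on chromosome 7 at 30496621 to 30504841 and GSR (2936) on chromosome 8 at 30678061 to 30727969. Of the peroxidases, GPX1 (2876) is on chromosome 3 at 49357176 to 49358358, GPX2 (2877) on chromosome 14 at 64939152 to 64942905 and GPX4 (2879) on chromosome 19 at 1103926 to 1106789. GPX3 (2878), at 151020438 to 151028993, and GPX8 (493869), at 55160118 to 55167301, share chromosome 5. GCLC holds a lncRNA gene, LOC105375095, on the opposite strand, which averaged 0.944 FPKM under RSGL, 1.26 under BSGL and 1.54 in control. Genes on the opposite strand also overlap GSS (MYH7B, at most 0.268 FPKM), GPX2 (CHURC1-FNTB, at most 0.105) and GPX8 (CDC20B, at most 0.0362). Whether counting used strand is not stated in the labels or notes, and the effect of these overlaps on the members' counts was not tested. GPX1 has a pseudogene, GPX1P1, listed at no more than 0.934 FPKM.

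In the control cells GPX1 stood highest, at 174 ± 8.07 FPKM (SD, n = 3), followed by GSR at 112 ± 2.75, GPX4 at 92.9 ± 4.95, GCLC at 74.7 ± 2.60 and GGCT at 50.5 ± 4.72. GCLM at 35.0 ± 1.25 and GSS at 33.1 ± 2.39 had overlapping ranges and were not ordered beyond their spread. GPX8 stood at 15.4 ± 0.950, GPX3 at 4.07 ± 0.334 and GPX2 at 0.796 ± 0.213 FPKM. Every other pair of neighbours in that order had separate ranges over the 3 libraries. The order was the same under BSGL, where again GCLM and GSS alone overlapped. Under RSGL it changed: GPX4 and GPX1 led with overlapping ranges, GGCT and GSS overlapped too, and GCLC stood below GSS and GCLM, above which it had stood in the other groups.

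**Figure D1:**
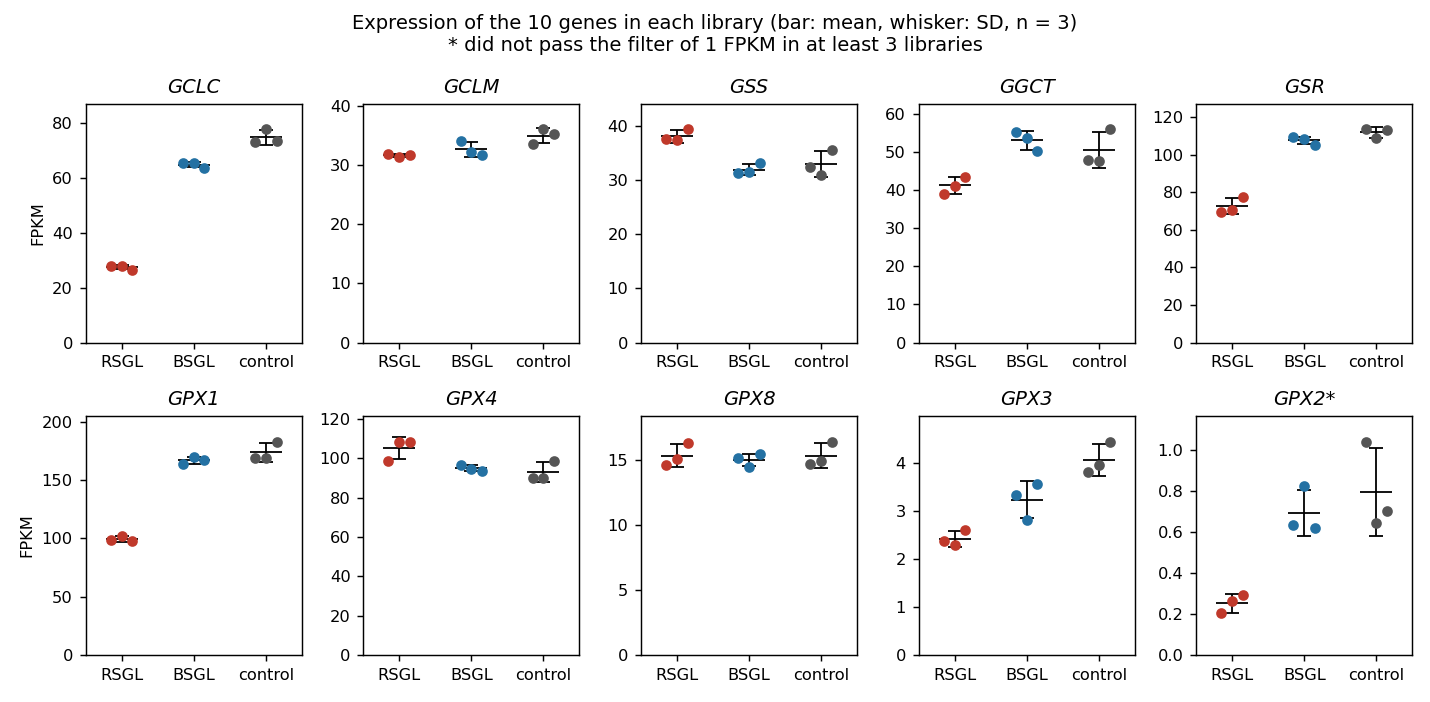
Expression of each of the 10 genes as FPKM (y axis, from 0) in the 3 libraries of RSGL, BSGL and control (x axis), with points for libraries, bars for means and whiskers for SD. The RSGL libraries of GCLC, at 26.5 to 27.9 FPKM, lie far below the control libraries at 73.1 to 77.7, while those of GPX8 overlap all other groups.

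RSGL against control compares transcripts after a day of exposure, where the compound and the tagged difference in cells cannot be told apart. Under RSGL the mean FPKM of the catalytic subunit GCLC fell by 63.3%, that of the peroxidase GPX1 fell by 42.8%, that of GPX3 fell by 40.4% and that of the reductase GSR fell by 35.1%. GCLM and GGCT fell by less, and GSS and the lipid peroxidase GPX4 rose, by 15.5% and 13.0%. GPX8 did not pass the test. Members thus moved in both directions among the enzymes of synthesis and among the peroxidases.

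GCLC measured 27.8, 27.9 and 26.5 FPKM in the RSGL libraries, against 73.1, 77.7 and 73.4 FPKM in control. The groups lay far apart, by a log2 change of -1.41 (SE 0.0350, 95% interval -1.49 to -1.34, limma with Benjamini-Hochberg adjustment, adjusted p = 2.13e-09). Changes here are on log2(FPKM + 1). GCLC's change was number 63 from the lowest among the 12775 genes tested. GCLM, the modifier subunit, which relieves the ligase of inhibition by glutathione, measured 31.8, 31.4 and 31.7 FPKM under RSGL, against 33.6, 36.1 and 35.3 FPKM in control. All RSGL libraries of GCLM were lower than all control libraries, and the change was small (log2 -0.14, interval -0.23 to -0.05, adjusted p = 0.0110). GSS measured 37.6, 37.4 and 39.5 FPKM under RSGL, against 32.5, 31.0 and 35.7 FPKM in control. The groups did not overlap and GSS rose (log2 0.20, interval 0.09 to 0.32, adjusted p = 0.00700).

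The ratio of GCLM to GCLC within a library shows the unequal change of the ligase subunits. It was 1.14, 1.13 and 1.20 in the RSGL libraries, against 0.460, 0.464 and 0.482 in control. GCLM thus stood above GCLC in every RSGL library and below it in every control library. The ratio was 2.46 times higher under RSGL, with no overlap, and a two-sided exact permutation test gave p = 0.1, the smallest that 3 against 3 libraries allow.

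GGCT, which releases amino acids from gamma-glutamyl dipeptides in the breakdown arm of the cycle, measured 39.0, 41.1 and 43.5 FPKM under RSGL, against 47.9, 47.6 and 55.9 FPKM in control. GGCT fell with no overlap (log2 -0.28, interval -0.43 to -0.13, adjusted p = 0.00490), although its control libraries were the more spread. GSR measured 69.7, 70.6 and 77.6 FPKM under RSGL, against 114, 109 and 113 FPKM in control. The highest RSGL library of GSR was well below the lowest control library (log2 -0.62, interval -0.71 to -0.52, adjusted p = 1.39e-06).

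Among the peroxidases, GPX1, a selenoprotein of cytosol and mitochondria that reduces hydrogen peroxide, measured 98.8, 102 and 97.5 FPKM under RSGL, against 169, 169 and 183 FPKM in control. The groups were wide apart and GPX1 fell (log2 -0.80, interval -0.88 to -0.71, adjusted p = 1.02e-07). GPX4, the selenoprotein that reduces lipid hydroperoxides in membranes and guards cells from ferroptosis, measured 98.5, 108 and 108 FPKM under RSGL, against 90.2, 89.9 and 98.6 FPKM in control. GPX4 rose by the test (log2 0.17, interval 0.07 to 0.28, adjusted p = 0.0108), though the lowest RSGL library lay just below the highest control library. In the RSGL libraries GPX1 and GPX4 stood at a ratio of 1.00, 0.940 and 0.902, against 1.87, 1.88 and 1.85 in control. GPX1 made up 44.7 ± 1.34% of the summed FPKM of the 5 peroxidases under RSGL and 60.6 ± 0.183% in control (SD, n = 3 each), and the sum itself was 222 ± 7.07 FPKM under RSGL and 287 ± 14.2 FPKM in control.

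GPX3, the secreted peroxidase of plasma, was low. It measured 2.38, 2.29 and 2.61 FPKM under RSGL, against 3.81, 3.96 and 4.45 FPKM in control, and fell with no overlap (log2 -0.57, interval -0.74 to -0.39, adjusted p = 0.000188). GPX8, a membrane protein of the endoplasmic reticulum with cysteine in place of selenocysteine, measured 14.6, 15.1 and 16.3 FPKM under RSGL, against 14.7, 14.9 and 16.4 FPKM in control. The groups of GPX8 overlapped almost fully, and the interval of the change ran from -0.12 to 0.12 (adjusted p = 0.997). GPX2, a peroxidase of the gut and other epithelia, reached 1 FPKM in 1 library and was not tested in the main comparison. It measured 0.202, 0.261 and 0.292 FPKM under RSGL, against 1.04, 0.646 and 0.702 FPKM in control, from 6, 7 and 8 fragments against 30, 19 and 20. All RSGL libraries of GPX2 were lower, and with no filter on low values it fell (log2 -0.51, SE 0.0951, limma adjusted p = 0.00457). Its mean FPKM fell by 68.4%, and the 1 FPKM added before the log makes the log2 change of so low a gene smaller.

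In all, 8 of the 9 members tested changed under RSGL, 2 higher and 6 lower, where 54.8% of all genes tested were called, 27.2% higher and 27.6% lower. The median change of the 9 was -0.28, beside -0.00 over all genes tested. The 9 members tested each stood at 1 FPKM or more in all libraries, so that only GPX2 was touched by the filter. The libraries of the groups did not overlap in 7 of the 9, as in 61.2% of all genes. The labels do not describe the replicates as separate cultures, so the p-values reflect only how far these libraries differ, and that spread may be technical.

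**Figure D2:**
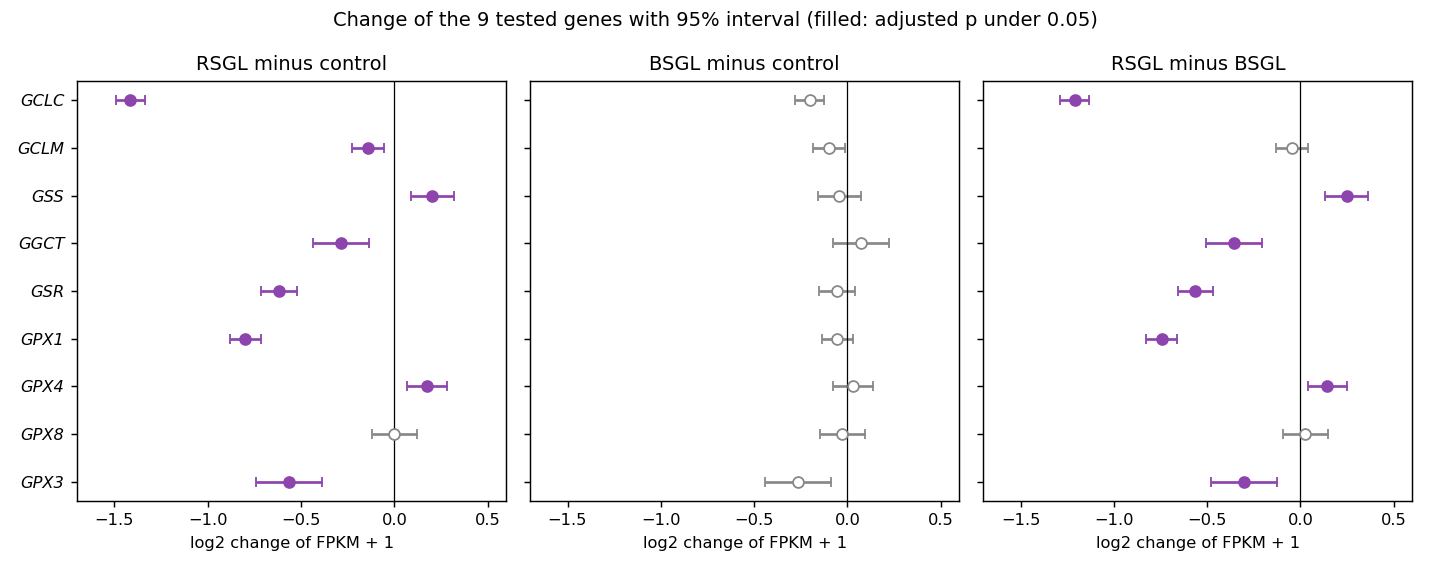
Log2 change of FPKM + 1 (x axis) for the 9 tested genes (y axis) in RSGL minus control, BSGL minus control and RSGL minus BSGL, with 95% intervals and filled points at an adjusted p under 0.05. GCLC lies at -1.41 for RSGL and at -0.20 for BSGL, and GSS and GPX4 are the genes right of 0 that passed for RSGL.

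BSGL was compared with control in the same way. Changes of the glutathione genes were small under BSGL, and 0 of 9 members passed the limma test with Benjamini-Hochberg adjustment, where 0.0861% of all genes tested were called. At an unadjusted p under 0.05 there were 3, GCLC, GCLM and GPX3, all with lower means under BSGL, where 857 of 12775 genes (6.71%) had such a p. limma-voom on fragments recovered from the table called 1, GCLC (log2 -0.22, adjusted p = 0.00162), where it called 31 of 12775 genes.

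GCLC measured 65.3, 65.3 and 63.6 FPKM under BSGL, against 73.1, 77.7 and 73.4 FPKM in control. The groups did not overlap, and the log2 change was -0.20 (interval -0.28 to -0.12, adjusted p = 0.118). GCLM measured 34.2, 32.2 and 31.7 FPKM under BSGL, against 33.6, 36.1 and 35.3 FPKM in control, with 1 BSGL library inside the control range (log2 -0.10, interval -0.18 to -0.01, adjusted p = 0.674). GPX3 measured 3.34, 2.81 and 3.56 FPKM under BSGL, against 3.81, 3.96 and 4.45 FPKM in control, with no overlap (log2 -0.26, interval -0.44 to -0.09, adjusted p = 0.494). GCLC and GPX3 were the 2 members whose libraries did not overlap, where 12.8% of all genes tested did not.

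The remaining members overlapped between BSGL and control, and the intervals of their changes bound what could have been missed. GSS had 31.3, 31.5 and 33.2 FPKM under BSGL (interval -0.16 to 0.07), and GGCT 55.2, 53.7 and 50.2 FPKM (interval -0.08 to 0.22). GSR had 109, 108 and 105 FPKM under BSGL (interval -0.15 to 0.04), and GPX1 had 164, 170.0 and 167 FPKM (interval -0.14 to 0.03). For these 4 genes no bound lay farther from 0 than the upper bound of GGCT. GPX4 had 96.5, 94.4 and 93.5 FPKM under BSGL (interval -0.08 to 0.14), and GPX8 15.2, 14.5 and 15.5 FPKM (interval -0.15 to 0.09). GPX2 had 0.632, 0.824 and 0.621 FPKM under BSGL, from 19, 23 and 18 fragments, and overlapped with control. The ratio of GCLM to GCLC was 0.523, 0.493 and 0.498 under BSGL, above the 0.460 to 0.482 of control, by a factor of 1.08 (two-sided exact permutation p = 0.1, the smallest possible).

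RSGL and BSGL were given at the same dose and for the same time, but their libraries carry different genotype tags, so a difference between the compounds and one between the tagged cells cannot be told apart here either. Of the 9 members tested, 7 differed between the RSGL and BSGL libraries, 2 higher and 5 lower under RSGL, where 54% of all genes tested were called, 26.5% higher and 27.5% lower. GCLC averaged 27.4 ± 0.760 FPKM under RSGL and 64.8 ± 0.968 FPKM under BSGL (SD, n = 3 each), a difference of -1.21 (interval -1.29 to -1.13, adjusted p = 6.31e-09). GPX1 averaged 99.4 ± 2.30 FPKM under RSGL and 167 ± 3.02 FPKM under BSGL (-0.74, interval -0.83 to -0.66, adjusted p = 1.80e-07). GSR averaged 72.6 ± 4.33 FPKM under RSGL and 108 ± 2.09 FPKM under BSGL (-0.56, adjusted p = 3.04e-06).

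The smaller differences went in both directions. GGCT averaged 41.2 ± 2.26 FPKM under RSGL and 53.0 ± 2.55 FPKM under BSGL (-0.36, adjusted p = 0.00134), and GPX3 averaged 2.43 ± 0.168 FPKM under RSGL and 3.23 ± 0.386 FPKM under BSGL (-0.30, adjusted p = 0.00874). GSS was higher under RSGL, at 38.2 ± 1.14 FPKM, than under BSGL, at 32.0 ± 1.03 FPKM (0.25, adjusted p = 0.00245). GPX4 was also higher, at 105 ± 5.62 FPKM under RSGL and 94.8 ± 1.55 FPKM under BSGL (0.14, interval 0.04 to 0.25, adjusted p = 0.0266). That call of GPX4 was lost without RSGL replicate 2 or 3, without BSGL replicate 2 or 3, and with no filter, where the adjusted p was 0.0718. GCLM averaged 31.6 ± 0.224 FPKM under RSGL and 32.7 ± 1.31 FPKM under BSGL, a difference that did not pass (interval -0.13 to 0.04, adjusted p = 0.363), nor did that of GPX8 (interval -0.10 to 0.15). The comparisons with control share the control libraries, so the values above are given side by side and not as independent evidence of each other.

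**Figure D3:**
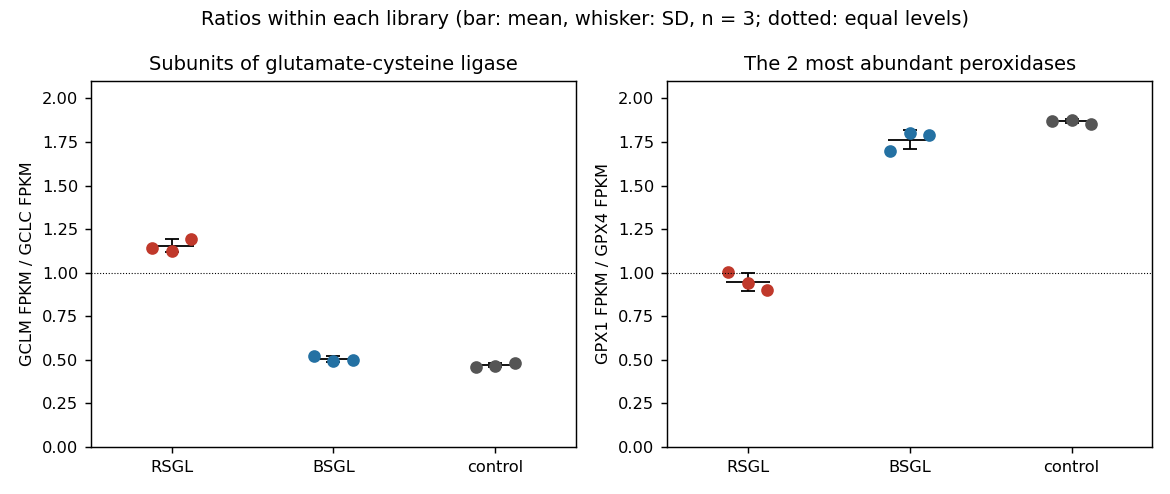
Ratio of GCLM to GCLC and of GPX1 to GPX4 (y axes, FPKM over FPKM, from 0) in each library of RSGL, BSGL and control (x axes), with means and SD. GCLM exceeds GCLC in the RSGL libraries alone, at 1.13 to 1.20, and GPX1 to GPX4 lies at 0.902 to 1.00 there, against 1.85 to 1.88 in control.

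By distance between profiles over the 9 libraries, after each gene's control mean was taken off, the protein-coding genes nearest to GCLC among 10908 were AKR1C3 (distance 0.17 on the log2 scale), ALDH3A1 (0.18) and C9orf3 (0.21). AKR1C3, an aldo-keto reductase, averaged 44.7 FPKM under RSGL, 112 under BSGL and 123 in control. ALDH3A1, an aldehyde dehydrogenase, averaged 80.4 FPKM under RSGL, 186 under BSGL and 209 in control. Nearest to GPX1 were KEAP1 (0.08), the inhibitor of NRF2, NEK2 (0.09), a centrosome kinase, and TICRR (0.12), a factor of replication initiation. KEAP1 averaged 18.8 FPKM under RSGL, 33.1 under BSGL and 34.1 in control. In the same order of groups, NEK2 averaged 12.2, 21.5 and 22.5 FPKM, TICRR 3.90, 7.30 and 7.68, and C9orf3 2.68, 8.36 and 9.19.

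Genes around the pathway moved in both directions under RSGL and were not called under BSGL. Of 13 genes of glutathione breakdown, 9 were tested, and 4 rose and 3 fell under RSGL (median 0.03), beside the 54.8% of all tested genes called in that comparison. CHAC1, a cytosolic enzyme that degrades glutathione, rose most (log2 1.47, SE 0.0663, adjusted p = 7.82e-08), at 3.95 ± 0.0294 FPKM under RSGL and 0.786 ± 0.0676 FPKM in control. Its log2 change was 2.32 with limma-voom. CHAC1 averaged 0.708 FPKM under BSGL, so it passed the filter through its RSGL libraries alone. A gene that enters in this way is bound to stand higher under RSGL, and CHAC1 is among the 4 that rose. CHAC1 was also called with no filter. ANPEP, an aminopeptidase of the cell surface, averaged 15.8 ± 0.472 FPKM under RSGL and 6.97 ± 0.279 FPKM in control. OPLAH, which opens 5-oxoproline to glutamate, averaged 6.25 ± 0.312 FPKM under RSGL and 4.16 ± 0.385 FPKM in control.

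Of 10 genes of cysteine supply and glutathione transport, 9 were tested, and 5 rose and 1 fell under RSGL (median 0.12). In that comparison 54.8% of all genes tested were called, 27.2% higher and 27.6% lower. The one that fell was SLC7A11, the cystine transporter, at 34.6 ± 1.15 FPKM under RSGL and 44.2 ± 1.59 FPKM in control (log2 -0.35, adjusted p = 3.47e-05). Its partner chain SLC3A2 rose, at 282 ± 7.69 FPKM under RSGL and 230 ± 9.54 FPKM in control. CBS, which begins the making of cysteine from homocysteine, averaged 5.07 ± 2.20 FPKM under RSGL and 2.03 ± 0.487 FPKM in control (log2 0.95, SE 0.267, adjusted p = 0.0190). Its call was lost without control replicate 2 (adjusted p = 0.0638) or 3 (adjusted p = 0.0526). CBS has a near-identical entry in the GRCh38 assembly, CBSL, so its level is uncertain. SLC1A4, a carrier of neutral amino acids, rose (log2 0.69), at 9.88 ± 0.451 FPKM under RSGL and 5.76 ± 0.472 FPKM in control. SLC1A1, a carrier of acidic amino acids and cysteine, rose too, at 1.74 ± 0.259 FPKM under RSGL and 0.799 ± 0.0297 FPKM in control. Its log2 change was 0.60 with the pseudocount of 1, 1.02 with 0.1 and 1.11 with limma-voom. SLC1A1, among the 5 that rose, averaged 0.865 FPKM under BSGL, so it too passed the filter through its RSGL libraries alone. It was also called with no filter.

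The other peroxidases GPX5, GPX6 and GPX7 were listed at 0.0455 FPKM or lower in every library. Of 19 genes of thioredoxin, glutaredoxin and peroxiredoxin systems with catalase and superoxide dismutases, 18 were tested. Of these, 7 rose and 7 fell under RSGL (median -0.01), where 27.2% of all genes tested were called higher and 27.6% lower. SRXN1, which repairs overoxidised peroxiredoxins, fell (log2 -0.53, SE 0.0293, adjusted p = 2.87e-07), at 166 ± 3.50 FPKM under RSGL and 241 ± 5.34 FPKM in control. PRDX1, a cytosolic peroxiredoxin, fell, at 374 ± 8.51 FPKM under RSGL and 494 ± 14.2 FPKM in control, whereas PRDX5 rose, at 302 ± 25.5 FPKM under RSGL and 217 ± 24.8 FPKM in control. Catalase, CAT, averaged 35.5 FPKM under RSGL and 36.5 FPKM in control and was not called (adjusted p = 0.431). Under BSGL 0 genes of these lists were called, with medians between -0.05 and 0.03.

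**Figure D4:**
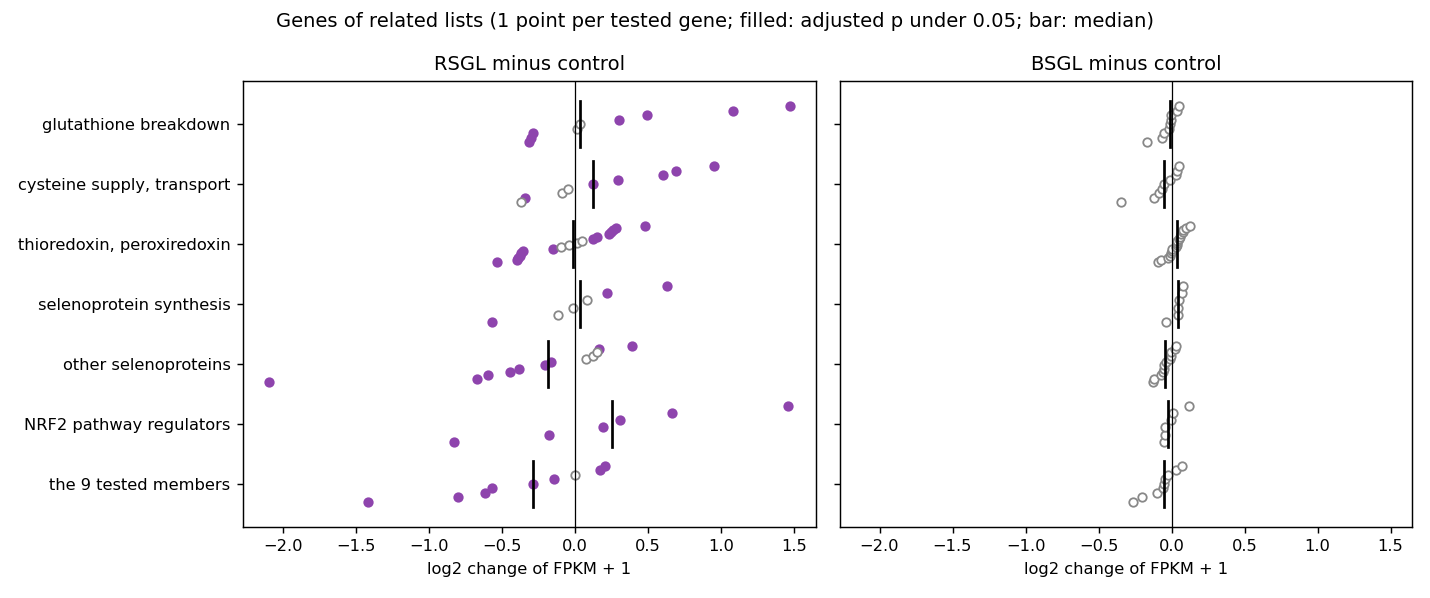
Log2 change of FPKM + 1 (x axis) of each tested gene in 6 related lists and of the 9 tested members (y axis), for RSGL minus control and BSGL minus control, with filled points at an adjusted p under 0.05 and bars at medians. The members have the lowest median for RSGL, -0.28, and all points for BSGL are open.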

How the data were processed

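The authors deposited FPKM, a level scaled to gene length and library size, for 45754 genes in 9 libraries, with gene lengths and positions, per the file headers. HISAT2 2.0.5, DESeq2 1.16.1 and featureCounts 1.5.0-p3 are named, with no role, in the submitters' processing notes. Columns that name no compound were taken as the control libraries of the same number. Multiplied by gene length, 100% of values under 300 fragments came out within 0.01 of whole multiples of 1 fragment.

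The 12775 genes that reached 1 FPKM in 3 or more libraries were tested on log2(FPKM + 1) with limma 3.58.1 in R 4.3.3 (trend and robust options), with all 9 libraries in 1 model. Benjamini-Hochberg adjustment ran over every gene tested, with a threshold of 0.05. The members, gene lists and tests were chosen with earlier results of these data known. Genes named beside the 10 members are, per list and comparison, up to 3 called genes with the largest change, and, for the 2 members with the largest RSGL change, the 3 genes nearest in profile. SLC7A11, SLC3A2, CAT, GPX5, GPX6, GPX7, NFE2L2 and SELENOS were named after their values were seen. Of the listed genes, 107 matched the table by symbol and 12 by gene ID. Alternatives were another pseudocount (0.1), no filter, median-of-ratios scaling, limma-voom on recovered fragments, a model of only the 2 groups compared, a replicate block, and each library left out.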

Additional observations from a re-analysis of the deposited data

How the results depend on the processing

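Under RSGL the 8 member calls held in each of the 15 alternatives, and with no filter GPX2 made it 9. Over all genes, 6994 of 30093 were called with no filter, and 6294 to 7281 of 12775 in the other alternatives. GPX8, which was not called, changed sign with median-of-ratios scaling (0.0020) and had a log2 change between -0.043 and 0.047 when single libraries were left out. For RSGL minus BSGL, leaving out a library gave 6 to 7 member calls, where 6166 to 6923 of 12775 genes were called. GPX8 ranged from -0.017 to 0.059 there. For BSGL minus control, the 11 genes called among all became 0 with no filter, 0 with only the 2 groups compared, 0 with a replicate block and 31 with limma-voom on recovered fragments, and 0 to 8 when a library was left out. Without adjustment, a p under 0.05 was reached by 1601 of 30093 genes (5.32%) with no filter, and of 12775 genes by 871 with only the 2 groups and 813 with the block, beside 857 in the main comparison. Member calls there stayed at 0 but for 1 with limma-voom, and the changes of GSS (-0.087 to 0.012) and GPX8 (-0.055 to 0.021) crossed 0 without single libraries. The cause was not tested.

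Same-numbered libraries did not deviate together (correlations -0.21 to 0.12). With 3 libraries per group this cannot exclude that the numbers pair the samples. The replicate block left the RSGL member calls at 8 and those against BSGL at 7. Over all genes it called 6792 for RSGL, beside 7005 without it, and 6696 against BSGL, beside 6904 without it. Depth limits GPX2, with 6 to 30 fragments per library.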

Other observations

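GPX1 to GPX4 are selenoproteins, and other genes of selenium use moved in both directions under RSGL. Of 16 other selenoprotein genes listed together, 12 were tested, and 2 rose and 7 fell (median log2 change -0.19). In that comparison 54.8% of all genes tested were called. The list left out the selenoproteins TXNRD1, TXNRD2, TXNRD3 and SEPHS2, which stood in other lists. Of these, TXNRD1 (log2 0.12), TXNRD3 (0.25) and SEPHS2 (0.63) rose under RSGL and TXNRD2 (-0.39) fell, all called by limma. DIO2, a deiodinase that activates thyroid hormone, fell most, at 1.61 ± 0.101 FPKM under RSGL and 10.1 ± 0.152 FPKM in control (SD, n = 3 each, log2 -2.09, limma adjusted p = 3.11e-09). SELENOH averaged 30.5 ± 0.767 FPKM under RSGL and 49.2 ± 3.33 FPKM in control, and SELENON, a protein of the endoplasmic reticulum, 16.4 ± 1.35 FPKM under RSGL and 25.3 ± 0.782 FPKM in control. SELENOS, of the degradation machinery of that compartment, was higher, at 38.4 FPKM under RSGL and 29.0 FPKM in control (adjusted p = 2.56e-05). Of 7 genes of selenoprotein synthesis 6 were tested, and 2 rose and 1 fell. SEPHS2, which makes selenophosphate, rose, at 55.1 ± 1.55 FPKM under RSGL and 35.3 ± 2.08 FPKM in control, and its relative SEPHS1 fell, at 15.7 ± 0.394 FPKM under RSGL and 23.8 ± 0.126 FPKM in control. The rise of SEPSECS (log2 0.22, adjusted p = 0.0273) was lost with no filter (adjusted p = 0.0584) and without RSGL replicate 1 or 2 or control replicate 2 or 3 (adjusted p = 0.0694 to 0.0854), and its change was 0.34 with limma-voom.

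All 6 regulators of the NRF2 pathway tested changed under RSGL, 4 higher and 2 lower, beside 27.2% of all genes tested called higher and 27.6% called lower. KEAP1 fell (log2 -0.82, adjusted p = 1.27e-07), as did NFE2L2, the gene of NRF2, by less, at 17.2 ± 0.243 FPKM under RSGL and 19.6 ± 0.549 FPKM in control. MAFF and MAFK, small MAF partners of NRF2, rose, MAFF at 8.75 ± 0.730 FPKM under RSGL and 2.54 ± 0.225 FPKM in control, and MAFK at 44.0 ± 3.34 FPKM under RSGL and 27.3 ± 0.984 FPKM in control. Under BSGL 0 genes of these 3 lists were called by limma.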
